A study of Mus musculus with 6 samples.

Results

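The enzymes that make asparagine, alanine, aspartate, proline and glutamine, together with mitochondrial phosphoenolpyruvate carboxykinase, were followed through ATF4 ChIP-seq of mouse embryonic fibroblasts (MEFs). The 8 genes were Asns, Gpt2, Got1, Got2, Pycr1, Aldh18a1, Glul and Pck2, out of 8863 genes named in the lists. Their peaks were the rows of the annotated peak lists that carried one of these names, at any distance from a transcription start site (TSS), which gave 17 of 17462 peaks. The cells were primary MEFs of strain 129S6/SvEvTac, either WT or GCN2-/- (GCN2 KO), kept for 24 h in complete DMEM (+Leu) or in DMEM lacking leucine (-Leu). Each of the 4 lists came from 1 library of chromatin pooled over 2 independent experiments, so no value has a replicate error and no test between conditions was possible. All values are therefore descriptions of these libraries. ATF4 was precipitated with the antibody sc-200. The lists do not measure expression, and the loss of GCN2 was not checked here.

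GCN2 is a kinase that senses uncharged tRNA when an amino acid is scarce. It phosphorylates eIF2α, which lowers general protein synthesis but raises translation of the mRNA of ATF4, a transcription factor. ATF4 pairs with C/EBP proteins and binds C/EBP-ATF composite elements, in which a C/EBP half-site is joined to an ATF half-site, and many of its target genes encode enzymes of amino acid synthesis and transport. Asns encodes asparagine synthetase, which moves the amide nitrogen of glutamine onto aspartate. Gpt2 encodes the mitochondrial alanine aminotransferase, and Got1 and Got2 encode the cytosolic and mitochondrial aspartate aminotransferases. Aldh18a1 and Pycr1 encode the first and the last enzyme of proline synthesis from glutamate. Glul encodes glutamine synthetase, and Pck2 encodes the mitochondrial enzyme that makes phosphoenolpyruvate from oxaloacetate.

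Stretches of the WT -Leu peaks are shown because they hold the letters nearest to the composite element TGATGCAA. For 6 genes they come from the promoter peak, and for Glul from the weaker of its intergenic WT -Leu peaks, since the stronger held no match. They were read from GRCm38.p6, the assembly of the mm10 build used by the lists, and are written 5′ to 3′ on the strand where the closest match reads as TGATG or TGACG. Capitals mark every match to TGATGCAA with at most 1 mismatch, on either strand. The Asns and Aldh18a1 stretches are limited to 30 bases because they lie in annotated exons, and the others contain no annotated exon.
Asns, chr6:7693206-7693235, minus strand: acaTGATGAAActtcccgcacgcgttacag
Gpt2, chr8:85492164-85492263, plus strand: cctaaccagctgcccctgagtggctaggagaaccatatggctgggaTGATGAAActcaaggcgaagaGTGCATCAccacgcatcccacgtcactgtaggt
Pck2, chr14:55540117-55540216, minus strand: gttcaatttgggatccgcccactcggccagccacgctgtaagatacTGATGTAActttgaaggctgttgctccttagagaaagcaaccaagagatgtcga
Got1, chr19:43524654-43524753, plus strand: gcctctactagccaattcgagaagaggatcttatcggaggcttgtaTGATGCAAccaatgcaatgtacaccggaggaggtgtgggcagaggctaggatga
Pycr1, chr11:120643798-120643897, minus strand: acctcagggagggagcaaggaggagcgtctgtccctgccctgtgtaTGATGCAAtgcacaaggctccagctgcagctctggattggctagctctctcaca
Aldh18a1, chr19:40588382-40588411, minus strand: ggcTGACGCAActccggagagctggacgta
Glul, chr1:154043140-154043239, plus strand: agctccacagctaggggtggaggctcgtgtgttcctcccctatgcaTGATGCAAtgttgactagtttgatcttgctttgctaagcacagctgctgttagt

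Leucine deprivation of WT MEFs gave the list with most enzymes. In WT -Leu all 8 genes had a peak at some distance, with 9 peaks in all. The WT +Leu list named 4 of them (Asns, Gpt2, Pck2 and Glul), with 1 peak each. Both GCN2 KO lists named 2, which were Asns and Pck2 in GCN2 KO +Leu and Asns and Glul in GCN2 KO -Leu. Of 21900 RefSeq protein-coding genes, a peak at some distance was listed for 14.6% with leucine and 18.3% without it in WT, and for 11.1% and 8.56%, respectively, in GCN2 KO.

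Peaks within 5 kb of a TSS, which define a target gene in the study, were present at 3 of the 8 genes with leucine and 6 without it in WT MEFs, and at 2 and 1 in GCN2 KO MEFs. The corresponding share of protein-coding genes was 3.03% (+Leu) and 4.4% (-Leu) in WT, and 2.26% (+Leu) and 1.61% (-Leu) in GCN2 KO. All 12 of these enzyme peaks were annotated as promoter peaks, with centers between 9 and 379 bp from the TSS. Among all peaks within 5 kb, promoter annotation was given to 14.7% (+Leu) and 21.6% (-Leu) in WT, and to 14.0% (+Leu) and 13.8% (-Leu) in GCN2 KO. The other 5 enzyme peaks lay more than 5 kb away, belonged to Glul and Got2, and scored between 23 and 36.

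**Figure D1:**
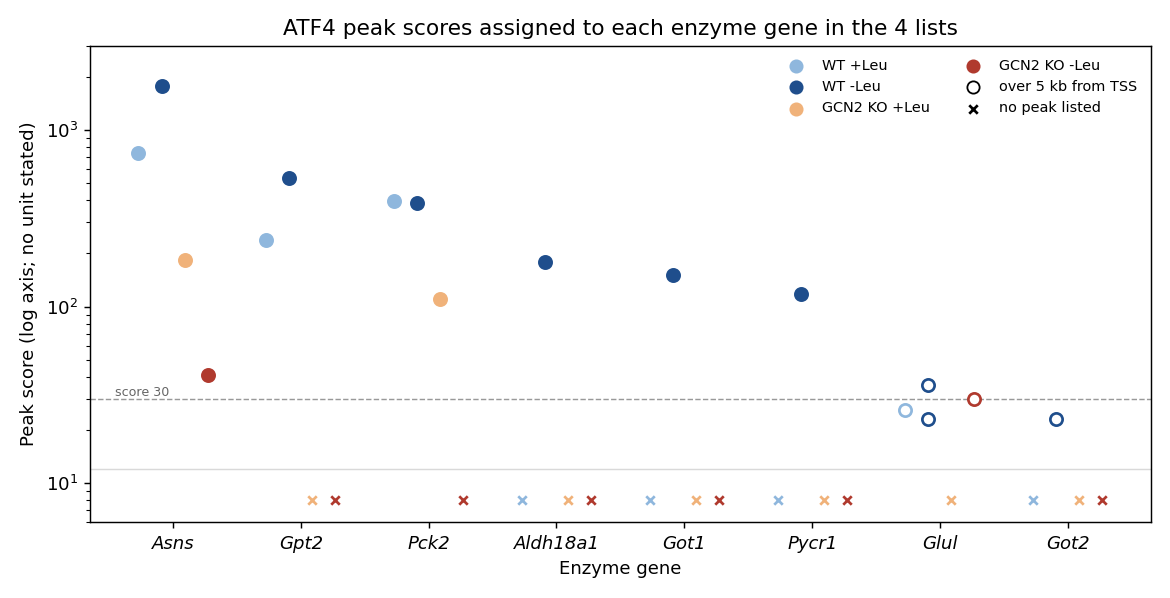
Peak score on a log axis for each enzyme gene, colored by list, with open circles for peaks more than 5 kb from the TSS, crosses for genes with no peak in a list and a dashed line at a score of 30, the median of both WT lists. The 12 promoter peaks scored from 41 to 1787, whereas the open circles of Glul and Got2 lay between 23 and 36.

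The score is a whole number from the peak caller, from 13 up. Its scale is not stated and it is not normalized between libraries, so each score is given with its rank, counted from the strongest peak of its list. Asns had a promoter peak in every list. It scored 746 in WT +Leu (rank 6 of 4850 peaks) and 1787 in WT -Leu (rank 6 of 6374). In GCN2 KO MEFs it scored 184 with leucine (rank 11 of 3566) and 41 without it (rank 311 of 2672, a score shared by 68 peaks). The Asns peak was thus among the 11 strongest of 3 lists and lay at the 88.4th percentile of the GCN2 KO -Leu list.

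The Asns centers lay within 10 bp of each other in WT +Leu, WT -Leu and GCN2 KO +Leu, at 41, 46 and 51 bp upstream of the TSS. The GCN2 KO -Leu center lay 9 bp downstream of the TSS, 55 bp from the WT -Leu center. The closest match to the composite element, TGATGAAA, ran from 7693225 to 7693232 on the minus strand of chromosome 6, the strand of the gene. Its mismatch is written C6A, where the first letter is that of TGATGCAA. Positions are counted from 1 at the 5′ end of the element. TGATGAAA lay 46.5 bp upstream of the TSS used by the lists. The RefSeq gene starts at 7693209 on that strand, and the element lies in an annotated exon, so this distance depends on the TSS model. The distance from the middle of TGATGAAA to the peak center was 5.5 bp (+Leu) and 0.5 bp (-Leu) in WT, and 4.5 bp (+Leu) and 55.5 bp (-Leu) in GCN2 KO. The Asns stretch shown above continues as TGATGAAAC, and after 11 further bases reads GTTACA. These letters are the known nutrient-sensing response elements of the ASNS promoter. Among 32851 RefSeq promoters of 300 bases, 0.247% held TGATGAAAC on either strand, 8.25% held GTTACA and 4 promoters held both on 1 strand.

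Pck2 was listed in 3 conditions. Its promoter peak scored 398 in WT +Leu (rank 13), 385 in WT -Leu (rank 134) and 110 in GCN2 KO +Leu (rank 30), and no Pck2 peak was listed in GCN2 KO -Leu. The scores of the WT pair were nearly equal. The 3 centers lay within 9 bp of each other, between 113 and 122 bp upstream of the TSS. They were 13.5 to 22.5 bp from TGATGTAA (C6T), which ran from 55540163 to 55540170 on the minus strand of chromosome 14, opposite to the gene.

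Gpt2 had a promoter peak in each WT list, and no Gpt2 peak was listed for GCN2 KO MEFs. It scored 238 in WT +Leu (rank 24) and 536 in WT -Leu (rank 82). The centers, 29 bp apart, lay 350 and 379 bp upstream of the TSS, the farthest of the promoter peaks. This window held a pair of near matches on opposite strands, TGATGAAA on the plus strand from 85492210 to 85492217 and TGATGCAC on the minus strand from 85492231 to 85492238 of chromosome 8. The WT -Leu center fell 3.5 bp from the latter and 24.5 bp from the former, and the WT +Leu center was 32.5 and 53.5 bp away.

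The 3 genes Aldh18a1, Got1 and Pycr1, of proline and aspartate metabolism, had a promoter peak in WT -Leu alone among the 4 lists. Aldh18a1 scored 179 (rank 345), Got1 scored 152 (rank 406) and Pycr1 scored 118 (rank 520). Of the 1111 gene names listed within 5 kb of a TSS in WT -Leu, all gene types included, 85.9% were not so listed in WT +Leu, so absence from the +Leu list was the usual case. These 954 genes had a median score of 30. A score at least as high as that of Aldh18a1 was found at 5.03% of them, of Got1 at 5.87% and of Pycr1 at 8.49%. All 3 enzymes thus stood in the upper part of that set, below Asns, Gpt2 and Pck2 in the same list.

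The Got1 and Pycr1 peaks held TGATGCAA itself. In Got1 it ran from 43524700 to 43524707 on the plus strand of chromosome 19, opposite to the gene, 17.5 bp from the peak center and 98.5 bp upstream of the TSS. In Pycr1 it ran from 120643844 to 120643851 on the minus strand of chromosome 11, the strand of the gene, 0.5 bp from the center. The Aldh18a1 peak had its center 51 bp downstream of the TSS and held TGACGCAA (T4C) 7.5 bp from the center, inside the first exon.

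**Figure D2:**
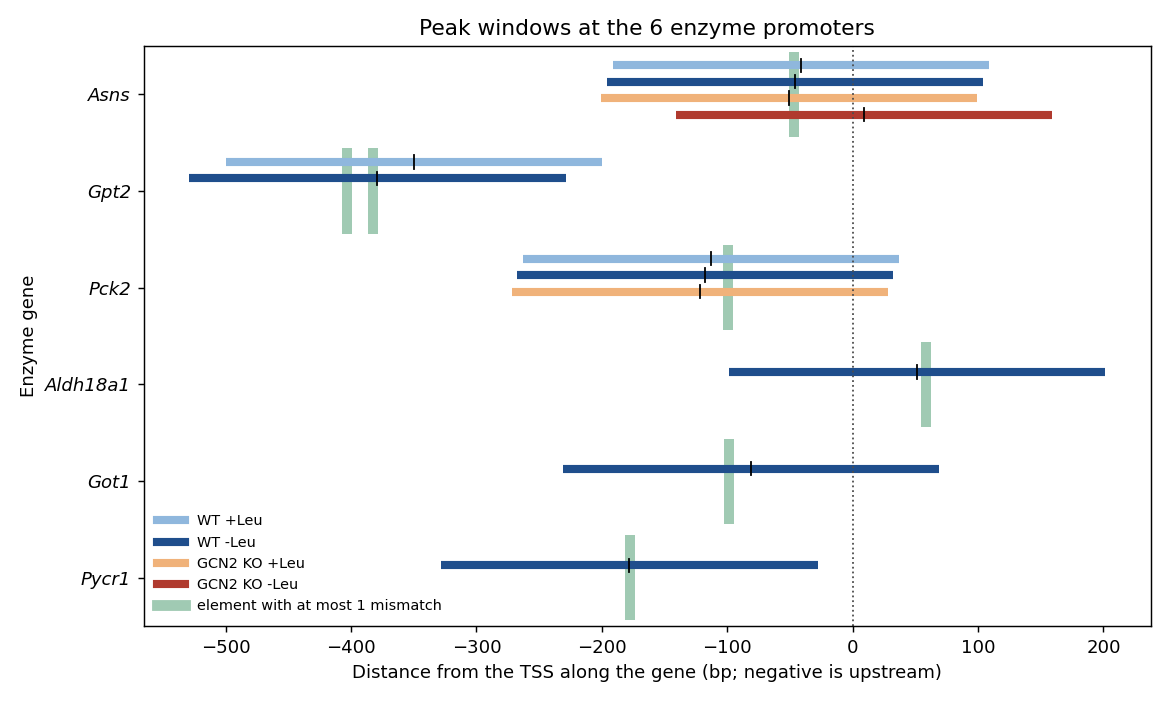
Windows of 301 bases (colored bars, by list) around each promoter peak center (black ticks), against distance from the TSS in bp along the gene, with green bands for elements that differ from TGATGCAA at no more than 1 position. The WT -Leu centers of all 6 genes fell within 18.5 bp of a band, and the GCN2 KO -Leu center of Asns lay 55.5 bp from it.

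Got2 and Glul had no promoter peak in any list. The Got2 peak, in WT -Leu alone, scored 23 (rank 4264, a score shared by 1122 peaks) and lay in exon 6 of 10, 16457 bp from the TSS. The Glul peaks were intergenic, 94.8 to 149 kb downstream of its TSS, and no pair of them lay within 300 bp of each other. They scored 26 in WT +Leu, 36 and 23 in WT -Leu and 30 in GCN2 KO -Leu, all near the median score of 30. The weaker WT -Leu peak of Glul held TGATGCAA 1.5 bp from its center, on the plus strand of chromosome 1 from 154043186 to 154043193. The assignment of these peaks to Glul rests on the nearest TSS alone. In the neighborhood of Got2, the lists named Slc38a7, a glutamine transporter gene chosen after its values were seen, 35.4 and 35.9 kb from the Got2 start, with strongest scores of 51 in WT +Leu and 107 in WT -Leu.

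**Figure D3:**
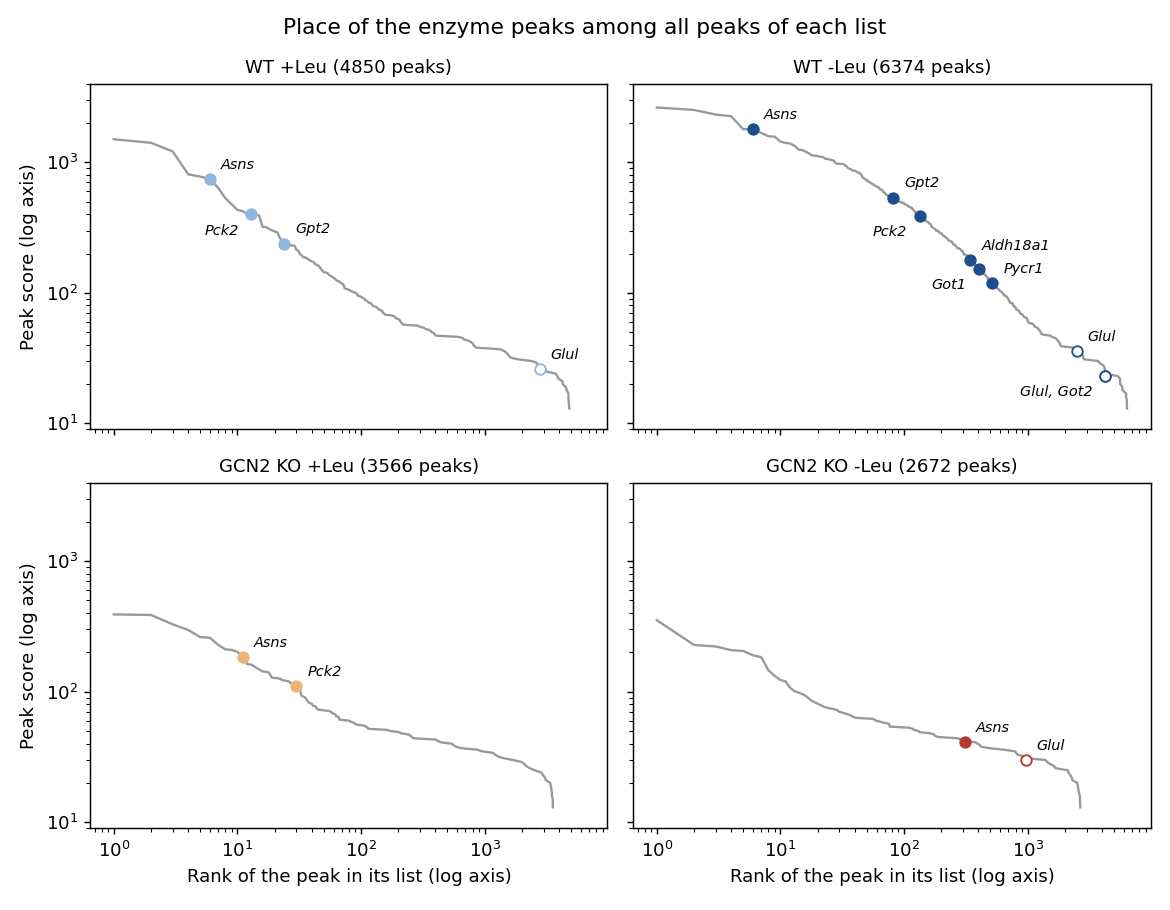
Score against rank, both on log axes, for all peaks of each list (gray line), with the enzyme peaks as points (open when more than 5 kb from the TSS). In the WT -Leu panel the 6 promoter peaks fall between ranks 6 and 520 of 6374, and in GCN2 KO -Leu Asns falls at rank 311 of 2672.

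The first comparison was leucine deprivation in WT MEFs. A peak within 5 kb was present in both lists at 157 genes, and the strongest score was higher in -Leu at 79.6% of them, with a median ratio of 2.13 (-Leu over +Leu) and an interquartile range of 1.15 to 3.88. The ratio was 2.4 for Asns, 2.25 for Gpt2 and 0.967 for Pck2. Asns and Gpt2 therefore lay close to the median of all shared genes, at places 70 and 73 of 157 from the highest ratio, and Pck2 at place 128. Asns was sixth in both lists, while the rank was 24 and 82 for Gpt2 and 13 and 134 for Pck2. A rank also depends on the other peaks of a list, and scores of at least 390 numbered 15 with leucine and 133 without it, so the ranks do not show a change at these promoters. Of the 4 WT +Leu enzyme peaks, 3 had a WT -Leu peak with its center 300 bp or less away and that of Glul had none. Among all WT +Leu peaks, 6.35% had such a partner. The 3 enzyme peaks ranked 24 or better of 4850, and the share among peaks of like strength was not computed.

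**Figure D4:**
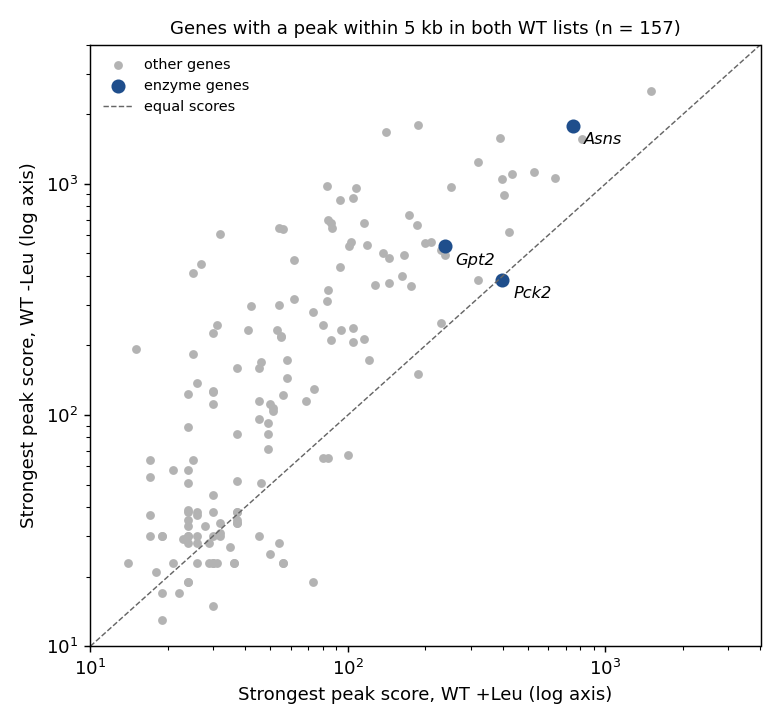
Strongest score within 5 kb in WT -Leu against WT +Leu, both on log axes, for the 157 genes with such a peak in both lists, with a dashed line of equal scores. Asns and Gpt2 lie above the line, with ratios of 2.4 and 2.25, and Pck2 lies just under it at 0.967.

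The same comparison in GCN2 KO MEFs concerned Asns alone. Its score was lower without leucine, with a ratio of 0.223, at place 47 of the 49 genes with a peak within 5 kb in both lists. The median ratio of these genes was 0.857 (interquartile range 0.581 to 1.2), and the score was higher in -Leu at 28.6% of them. Pck2, with 110 in the +Leu list, had no peak in the -Leu list. Of the 2 enzyme peaks of GCN2 KO +Leu, that of Asns had a partner in the -Leu list and that of Pck2 had none. Among all peaks of the GCN2 KO +Leu list, 2.75% had one. Both enzyme peaks ranked 30 or better of 3566, and the share among peaks of like strength was not computed. The -Leu lists were called against input DNA from leucine-fed cells of the same genotype, and sequencing depth is not recorded in them, so the medium and the depth of a library cannot be told apart.

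Between genotypes, the scores of Asns and Pck2 were lower in the GCN2 KO lists. With leucine, the ratio of GCN2 KO over WT was 0.247 for Asns and 0.276 for Pck2, against a median of 0.759 over 80 shared genes, of which 26.2% scored higher in GCN2 KO. Without leucine it was 0.0229 for Asns, place 57 of 58 genes, against a median of 0.652, and 31.0% of these genes scored higher in GCN2 KO. No peak was listed under the names Gpt2, Got1, Pycr1 or Aldh18a1 in either GCN2 KO list, in which the lowest score was 13. A GCN2 KO -Leu peak named for Mafg, with a score of 23, was however annotated to intron 7 of 7 of the Pycr1 transcript. It lay 6.18 kb from the Pycr1 start, outside the RefSeq gene. Absence of a WT gene name from the GCN2 KO lists was the usual case. Of the genes with a peak within 5 kb in WT -Leu, 1053 had none in GCN2 KO -Leu and 58 had one. With leucine, 696 WT genes had none in GCN2 KO and 80 had one. A gene without a peak was not detected at the depth of its library, and the lists do not show that binding was absent. The strongest peak of any gene scored 1499 with leucine and 2628 without it in WT, against 391 and 353 in GCN2 KO, so the upper end of the scale also differed between lists.

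Across the peaks of the 8 genes, TGATGCAA lay within 50 bp of the center at 3 of 9 WT -Leu peaks (Got1, Pycr1 and the weaker Glul peak) and at none of the 4 WT +Leu, 2 GCN2 KO +Leu or 2 GCN2 KO -Leu peaks. Of all peaks on assembled chromosomes it did so at 6.95% (-Leu) and 2.71% (+Leu) in WT, and at 1.09% (-Leu) and 1.07% (+Leu) in GCN2 KO. With any base at position 6 (TGATGNAA, which includes TGATGCAA), it was found at 6 of 9 WT -Leu peaks, 2 of 4 WT +Leu peaks, 2 of 2 GCN2 KO +Leu peaks and 0 of 2 GCN2 KO -Leu peaks, against 11.0%, 4.26%, 2.23% and 2.26% of all peaks. A match with at most 1 mismatch lay within 50 bp of the center at 7 of 9 WT -Leu enzyme peaks, the 6 promoter peaks among them, and at 18.9% of all WT -Leu peaks. In WT +Leu it did so at 3 of 4 enzyme peaks and 10.4% of all peaks, and in GCN2 KO +Leu at 2 of 2 and 7.95%. In GCN2 KO -Leu it did so at 0 of 2 enzyme peaks and at 7.19% of all peaks. There the Asns element lay 55.5 bp from the center, just outside the limit. Within 150 bp of the center, 2 of 2 enzyme peaks and 20.1% of all GCN2 KO -Leu peaks held a match. Such a match is frequent in itself, as 16.9% of the RefSeq promoters held one in 300 bases, 3.97% held TGATGNAA and 0.895% held TGATGCAA. The letters were those of the reference genome and not of the 129S6/SvEvTac strain.

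The base composition of the promoter peaks varied between the enzymes. In WT -Leu the GC content of the 301-base window was 50.5% at Gpt2, 53.8% at Pck2, 55.5% at Pycr1, 58.8% at Got1, 65.8% at Asns and 68.8% at Aldh18a1. The median over the promoter peaks of that list was 56.1%. Asns and Aldh18a1, whose peaks were nearest to the TSS, were the most GC-rich, and Gpt2, whose peak was farthest, was the least.

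Other enzymes that make or use the same metabolites were also looked up in the lists. Of 20 such genes, 2 were listed within 5 kb in WT +Leu and 1 in WT -Leu, while GCN2 KO +Leu named none, beside 3.03%, 4.4% and 2.26% of protein-coding genes. Ass1, which encodes argininosuccinate synthase, had the only promoter peak among these, in WT -Leu with a score of 78 (rank 782), 320 bp upstream of its TSS. The WT +Leu peaks were in introns of Mdh1 (cytosolic malate dehydrogenase, score 31) and Prodh (proline dehydrogenase, which degrades proline, score 26). None of these 3 peaks held TGATGCAA within 50 bp of its center. The Ass1 peak held 1 match with at most 1 mismatch there, and the Mdh1 and Prodh peaks held none. Asnsd1, Aspg, Asrgl1, Gpt, Aldh4a1 and Pck1 had peaks only at larger distances.

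A few genes resembled the enzymes most closely in their pattern over the lists. Likeness was the sum over lists of the differences in percentile rank of the strongest peak within 5 kb, among genes listed in exactly the same conditions. Asns shared its 4 lists with 16 other genes, of which Gm5627 (sum 3.61), Acot2 (6.14) and Aars (10.01), the cytosolic alanyl-tRNA synthetase, were nearest. Their GCN2 KO -Leu scores were 39, 44 and 54, beside 41 for Asns. For Pck2 the nearest of 29 genes over 3 lists were Nupr1 (1.04), Slc7a1 (1.4), a transporter of cationic amino acids, and Shmt2 (2.08), the mitochondrial serine hydroxymethyltransferase. For Gpt2, with 100 genes listed in the same 2 conditions, they were Clic4 (0.188), Lsm14a (0.575) and Ddit4 (0.996), an inhibitor of mTORC1 signaling.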

How the data were processed

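ATF4 ChIP-seq libraries of WT and GCN2 KO MEFs, 1 per condition, were used as 4 annotated peak lists, and the 2 input libraries were not analysed here. The authors aligned trimmed reads to mm10 (BWA 0.7.12), called peaks against input (MACS2 2.1.0, false discovery rate of 0.05) and annotated windows of 150 bp on each side of the summit (HOMER 4.7). The deposited values are the score given by the peak caller, a signed distance in bp to the closest TSS, and the fraction of bases that are GC or CpG. No depth is listed, and the error of a score is thus not known.

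From these lists were computed ranks (1 plus the number of higher scores), percentiles (share of peaks with that score or less), ratios of the strongest score within 5 kb, common sites (centers 300 bp or less apart) and element matches on both strands. Gene names were matched exactly, RefSeq protein-coding genes by Entrez ID, and all 8 promoters were found in the RefSeq table. The listed GC content equalled that of GRCm38.p6 at all 17408 peaks on assembled chromosomes, and coordinates count from 1. Motif and overlap steps were tested on simulated data. The tools were samtools 1.23.1 and Python 3.11.15 (pysam 0.24.0, pandas 2.3.3, numpy 2.4.6, matplotlib 3.10.9).

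The genes, lists and rules were chosen with earlier results of these data known. Named were the 8 enzymes, genes of a list of 20 neighboring enzymes with a peak within 5 kb (those with only more distant peaks are named without values), and the 3 genes most like each enzyme listed in at least 2 conditions. Slc38a7 and Mafg were added with their values in view. A result for another gene of that list is not reported here. Alternatives were a score of 30 or more, the strongest 2672 peaks of each list, limits of 1 and 10 kb, other overlap distances, another motif window or letter, the peak nearest to the TSS, any distance and percentile ranks.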

Additional observations from a re-analysis of the deposited data

Results flagged for a closer look

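The Asns promoter score moved in opposite directions in the genotypes when leucine was withheld, with a ratio of -Leu over +Leu of 2.4 in WT and 0.223 in GCN2 KO. The number of the 8 enzyme genes with a peak within 5 kb did likewise, from 3 in WT +Leu to 6 in WT -Leu and from 2 in GCN2 KO +Leu to 1 in GCN2 KO -Leu. Among all protein-coding genes the share with such a peak moved the same way. It went from 3.03% to 4.4% in WT and from 2.26% to 1.61% in GCN2 KO. The median score ratio of all shared genes, -Leu over +Leu, was 2.13 in WT and 0.857 in GCN2 KO. With 1 library per condition, no difference between the genotypes was tested.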

How the results depend on the processing

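Of 68 values computed under an alternative, 61 stayed within the limits set for an unchanged value, 6 moved and 1 reversed. The counts of enzyme genes, of their peaks and of common sites stayed within 1.5 times under the alternatives run for each, which were a score of 30 or more, the strongest 2672 peaks and, for counts within 5 kb, limits of 1 and 10 kb, and for common sites the other overlap distances. The counts within 5 kb were 3, 6, 2 and 1 under both score filters and both other distance limits. They could not differ, because the promoter peaks lay 9 to 379 bp from the TSS, scored at least 41 and ranked 520 or better. The nearest other enzyme peak lay 16.5 kb away. Asns, Gpt2 and Pck2 had 1 peak in each list that named them. The nearest peak, the limit of 1 kb and any distance thus had to return the same score ratios. The 61 include such fixed values and do not measure stability. With any base at position 6, the peaks holding the element rose from 0 to 2 in WT +Leu, from 3 to 6 in WT -Leu and from 0 to 2 in GCN2 KO +Leu. On percentile ranks the WT ratio was 1.0 for Asns, 0.992 for Gpt2, which turned its direction, and 0.982 for Pck2, and the GCN2 KO ratio for Asns was 0.886. The cause was not tested. The direction at Gpt2 thus depended on the scale. Its percentiles were 99.5 in WT +Leu and 98.7 in WT -Leu, so the percentile ratio had almost no room above 1. No paired analysis was possible because each condition had 1 library. Sequencing depth is not recorded in the lists, which limits any reading of a gene without a peak.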
